A study of Arabidopsis thaliana with 12 samples.

Results

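Abscisic acid (ABA) is the plant hormone of seed dormancy and drought. Its receptors, the PYR/PYL proteins, bind the hormone and then dock onto clade A protein phosphatases of type 2C (PP2Cs) and block them. A free clade A PP2C keeps the SnRK2 kinases dephosphorylated and inactive, so these phosphatases are the brake of the pathway, and many of their own genes are switched on by ABA as negative feedback. NCED3, a 9-cis-epoxycarotenoid dioxygenase, cleaves a carotenoid precursor in the step that limits ABA synthesis in vegetative tissue under drought. The set described here holds the 9 clade A genes ABI1 (AT4G26080), ABI2 (AT5G57050), HAB1 (AT1G72770), HAB2 (AT1G17550), HAI1 (AT5G59220), HAI2 (AT1G07430), HAI3 (AT2G29380), AHG1 (AT5G51760) and AHG3 (AT3G11410), together with NCED3 (AT3G14440). All probes that map to these 10 loci were taken, which gave 12 probes among the 43603 on the array, 3 for AHG3 and 1 for each of the others. All 10 genes were among the 19020 of 25383 genes that could be tested.

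Transcripts were measured in whole seedlings of Arabidopsis thaliana, ecotype Col0, grown for 10 days on GM medium in 16 h light and 8 h dark and given no treatment. The groups were the arf2 mutant (arf2-8), mutated in the auxin response factor gene ARF2, the gnc gnl double mutant, mutated in the genes of the GATA transcription factors GNC and GNL, libraries labelled arf2 gnc gnl (the arf2-8 gnc gnl triple mutant in the labels), and wild type (WT). Each group had 3 independent biological samples, each on its own one-colour Agilent array. Levels are given as normalised signal in percent of the 75th percentile of the same array (% of P75), and they compare libraries for a given probe, not different genes with each other.

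The targeted genes went against the label of 1 group. ARF2 signal was 2.07, 0.392 and 3.04% of the WT mean in the arf2 libraries, but 56.8, 54.4 and 70.5% in libraries labelled arf2 gnc gnl. It was not well above background in arf2 replicates 1 and 2, so those percentages rest on signal near background. GNL was not well above background on any gnc gnl array and was at least 9.51-fold lower there than in WT, yet it stood at 168, 180 and 180% of the WT mean in libraries labelled arf2 gnc gnl. GNC was low in both, at 3.92 to 5.89% of the WT mean in gnc gnl and 5.61 to 6.4% in libraries labelled arf2 gnc gnl, which are therefore called by their label throughout. Between 64.57 and 70.24% of probes were well above background per array, and the 4 green tissue markers and 5 root markers were well above background on every array. In gnc gnl against WT, 2 of the 5 root markers were called higher (median log2 change 0.342), where 12.5% of tested genes were. No root marker was called against WT in the other groups, and no green tissue marker in any. Markers of seeds also differed: their summed signal over 13 genes was 5690 to 9510% of P75 in arf2, 337 to 3220% in gnc gnl and 1610 to 5450% in libraries labelled arf2 gnc gnl, against 168 to 232% in WT, where ABI3, SESA1, SESA2, SESA4 and SESA5 were not well above background on any array. The test called 9 of the 13 higher than WT in arf2, 7 in gnc gnl and 7 in libraries labelled arf2 gnc gnl. Of all tested genes, 2.48% were called higher in arf2, 12.5% higher in gnc gnl, and 2.27% in either direction in libraries labelled arf2 gnc gnl. The sums in arf2 rest largely on CRA1 and CRU3 (3620 and 3500% of P75 in replicate 1). CRU2 and SESA4 were not well above background on any arf2 array, but reached 317 and 125% of P75 in gnc gnl replicate 1. The part of these seed transcripts in the results that follow was not tested. In whole seedlings, more cells of a type and more RNA per cell cannot be told apart.

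The phosphatase genes HAI3 and AHG1 rose 5.25-fold and 4.37-fold in arf2 against WT. They were the 2 of the 10 genes that passed the test, against 2.48% of all tested genes called higher in that comparison. The log2 change was above 0 in arf2 for all 10 genes, against 48.9% of tested genes, and the 3 arf2 arrays lay above the 3 WT arrays for 9 of 10, against 11.4%. The median log2 change of the set was 0.625, while that of all tested genes was -0.004. In gnc gnl against WT none of the 10 was called, where 24.6% of tested genes were, and 2 of the 10 log2 changes lay above 0, where 50.7% did. The plot of signals by library shows each value.

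**Figure D1:**
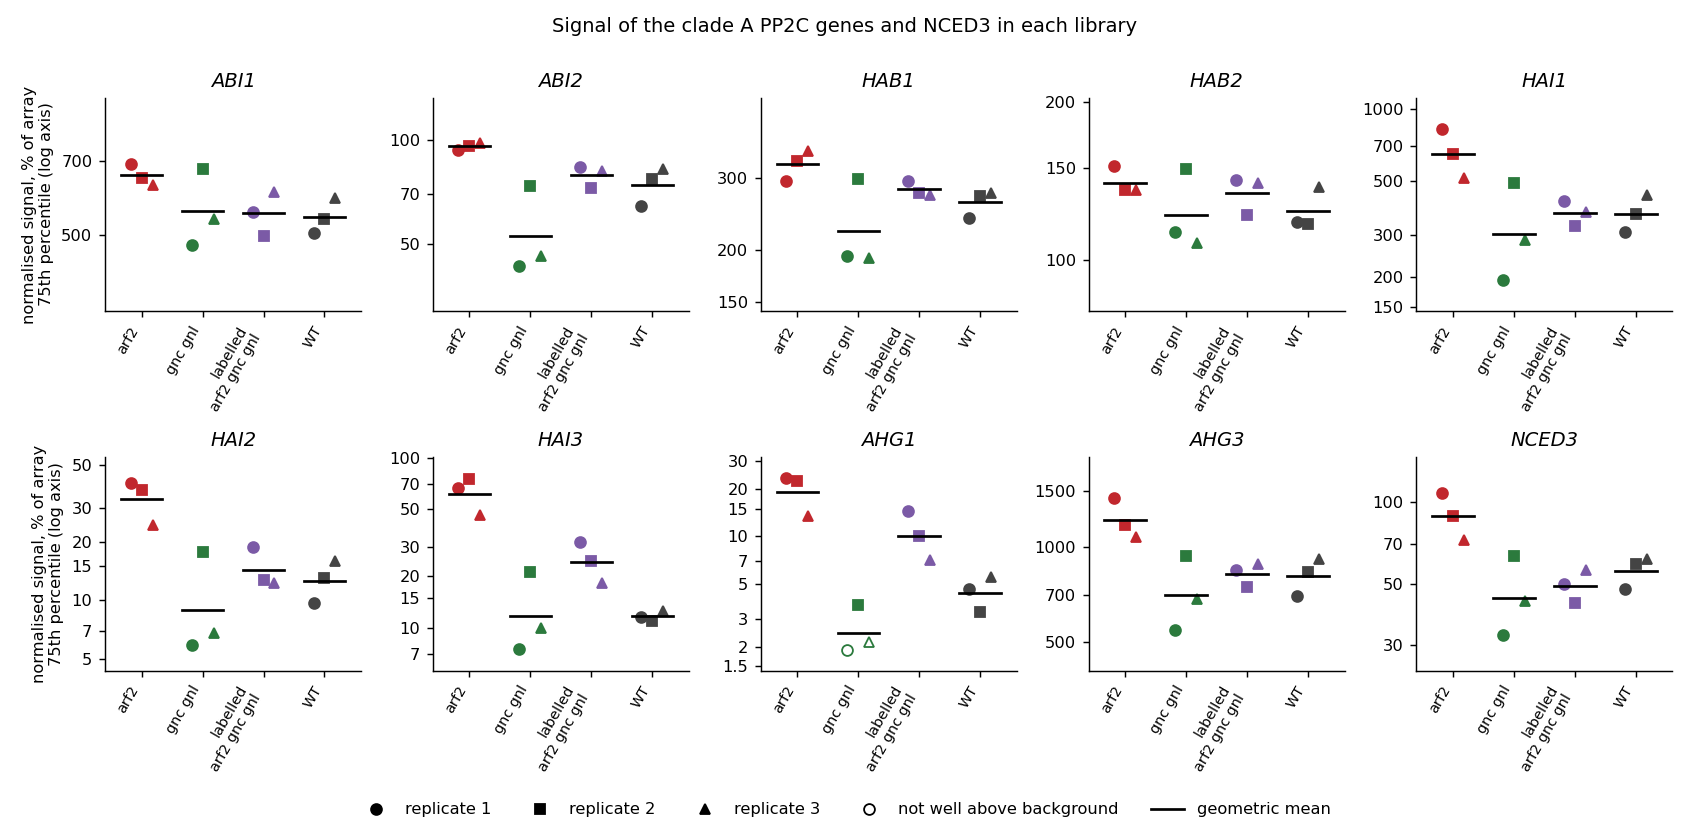
Normalised signal of the 10 genes (vertical log axes, % of the array's 75th percentile, each panel with its own range) in the 3 libraries of each genotype, with symbols for replicates, open symbols where the spot was not well above background and bars for the geometric mean. The arf2 mean is the highest in every panel. That of libraries labelled arf2 gnc gnl lies between it and WT in all but NCED3, and is near WT except for HAI3 and AHG1. The square of gnc gnl replicate 2 is the highest of its genotype in every panel.

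HAI3 is 1 of the 3 HAI genes, named for being highly ABA-induced. Its signal was 66.4, 74.5 and 46.2% of P75 in arf2, 7.53, 21.3 and 9.93% in gnc gnl and 32.1, 24.7 and 18.2% in libraries labelled arf2 gnc gnl, against 11.6, 10.9 and 12.5% in WT. Every arf2 library was above every library of the other 3 groups, the libraries labelled arf2 gnc gnl were all above WT, and gnc gnl spread to both sides of WT. The mean was 62.4 ± 14.6% of P75 in arf2 and 11.7 ± 0.797% in WT (SD, n = 3 each). The log2 change of arf2 against WT was 2.39 ± 0.336 (SE, 95% interval 1.65 to 3.13, adjusted p = 0.00213, limma with Benjamini-Hochberg adjustment). The libraries labelled arf2 gnc gnl had 1.06 ± 0.336 more than WT on the log2 scale (95% interval 0.32 to 1.8), with a limma adjusted p of 0.127. They were lower than arf2, with a log2 change of -1.33 ± 0.336 and a limma adjusted p of 0.0363. HAI3 was the only member for which genotypes next to each other in the order of levels differed past the threshold, namely arf2 and the libraries labelled arf2 gnc gnl. Against gnc gnl, arf2 was 5.24-fold higher (limma adjusted p = 0.000499).

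AHG1 encodes a phosphatase known mainly from seeds, where its loss makes germination hypersensitive to ABA. Its signal was 23.5, 22.5 and 13.4% of P75 in arf2, 1.9, 3.66 and 2.14% in gnc gnl and 14.5, 10 and 7.05% in libraries labelled arf2 gnc gnl, against 4.64, 3.31 and 5.53% in WT. It was well above background on 1 of the 3 gnc gnl arrays and on all 9 others. The arf2 libraries and those labelled arf2 gnc gnl overlapped with each other and lay above all WT and gnc gnl libraries, and of the gnc gnl libraries replicate 2 lay within the WT values and the others below them. The log2 change of arf2 against WT was 2.13 ± 0.328 (SE, 95% interval 1.41 to 2.85, limma adjusted p = 0.00375). AHG1 was 4.1-fold higher in libraries labelled arf2 gnc gnl than in gnc gnl (log2 change 2.03 ± 0.328, limma adjusted p = 0.00481), the 1 call among the 10 genes where 5.36% of tested genes were called higher. Against WT the same libraries had a log2 change of 1.20 ± 0.328 (95% interval 0.47 to 1.92), with a limma adjusted p of 0.0887. In gnc gnl against WT it was -0.84 ± 0.328 (95% interval -1.56 to -0.12, limma adjusted p = 0.0847).

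Both calls against WT depended on the spot signal and background treatment used. A normexp correction of the median spot signal, with an offset of 50 added, was put in place of the deposited processed signal. The log2 change in arf2 was then 1.68 for HAI3 (limma adjusted p = 0.105) and 1.03 for AHG1 (adjusted p = 0.393), and 114 genes in all were called in place of 1088. AHG1 had processed intensities of 77.39 to 137.5 in WT. In libraries labelled arf2 gnc gnl its log2 change against WT was 0.06 with normexp, beside 1.20 with the deposited signal. In gnc gnl against WT it was -1.13, beside -0.84. For libraries labelled arf2 gnc gnl against arf2 it was -0.97, beside -0.93. The parts of the offset, the median signal and the background correction in these values were not tested. The arrays sat on 3 slides, with arf2 replicate 1 beside the 3 WT arrays. With slide as a block the log2 changes were 2.51 for HAI3 (limma adjusted p = 0.0353) and 2.42 for AHG1 (adjusted p = 0.027). These estimates are those of the slide that both genotypes share, where arf2 has 1 library and no spread of its own.

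HAI2 and HAI1 had the next largest differences between arf2 and WT, and neither passed the test. HAI2 signal was 40.6, 37.1 and 24.4% of P75 in arf2, 5.86, 17.8 and 6.8% in gnc gnl and 18.8, 12.7 and 12.3% in libraries labelled arf2 gnc gnl, against 9.76, 13 and 16% in WT. HAI1 signal was 827, 649 and 518% of P75 in arf2, 194, 492 and 284% in gnc gnl and 415, 327 and 371% in libraries labelled arf2 gnc gnl, against 306, 366 and 438% in WT. For both genes the arf2 libraries were above all 9 others, and those of the other 3 groups overlapped. The log2 change in arf2 against WT was 1.39 ± 0.379 for HAI2 (95% interval 0.56 to 2.22, limma adjusted p = 0.0583) and 0.83 ± 0.29 for HAI1 (95% interval 0.2 to 1.47, adjusted p = 0.135). With slide as a block HAI2 had a log2 change of 1.68 (limma adjusted p = 0.178).

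AHG3, also called PP2CA, acts as a main ABA phosphatase in germinating seeds and is active in leaves and guard cells as well. The brightest of its probes that could be tested gave 1420, 1170 and 1070% of P75 in arf2, 546, 930 and 684% in gnc gnl and 845, 744 and 881% in libraries labelled arf2 gnc gnl, against 697, 829 and 913% in WT. A second probe gave 284, 272 and 232% of P75 in arf2, 121, 212 and 137% in gnc gnl and 188, 163 and 204% in libraries labelled arf2 gnc gnl, against 158, 159 and 192% in WT. On both probes the arf2 libraries were above all others. The log2 change of arf2 against WT was 0.58 ± 0.181 on the first probe (95% interval 0.19 to 0.98, limma adjusted p = 0.0945) and 0.63 ± 0.183 on the second (adjusted p = 0.0783 with each probe tested on its own). The third probe was brighter, with 2160, 1760 and 1520% of P75 in arf2 and 1030, 1240 and 1350% in WT. It kept 1 of its 3 gnc gnl values after removal of outlier spots and was not tested, and its means differed by 0.58 between arf2 and WT on the log2 scale.

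The 4 remaining phosphatases are ABI1 and ABI2, in which dominant mutations make plants insensitive to ABA, and their close relatives HAB1 and HAB2. None was called in arf2 against WT, and their log2 changes were the 4 smallest of the set, at 0.18 to 0.37. ABI2 signal was 93.3, 95.9 and 97.8% of P75 in arf2, 43.4, 73.8 and 46.4% in gnc gnl and 83.5, 72.8 and 81.2% in libraries labelled arf2 gnc gnl, against 64.3, 76.9 and 82.3% in WT. The arf2 libraries lay closely together above all others, and gnc gnl replicate 2 was the gnc gnl library within the WT values. ABI2 had a log2 change of 0.37 ± 0.171 in arf2 against WT (limma adjusted p = 0.278) and -0.49 ± 0.171 in gnc gnl against WT (95% interval -0.86 to -0.11, adjusted p = 0.0604). HAB1 signal was 296, 330 and 349% of P75 in arf2, 194, 298 and 192% in gnc gnl and 296, 276 and 273% in libraries labelled arf2 gnc gnl, against 240, 271 and 276% in WT. HAB1 was above WT in every arf2 library, and gnc gnl replicate 2 reached into the arf2 values.

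ABI1 and HAB2 were the members with the least difference between groups. ABI1 signal was 691, 648 and 629% of P75 in arf2, 478, 674 and 539% in gnc gnl and 556, 497 and 609% in libraries labelled arf2 gnc gnl, against 504, 537 and 592% in WT. HAB2 signal was 151, 136 and 136% of P75 in arf2, 113, 149 and 108% in gnc gnl and 142, 122 and 140% in libraries labelled arf2 gnc gnl, against 118, 117 and 138% in WT. The arf2 arrays lay above WT for ABI1 and overlapped with WT for HAB2, the 1 member of the 10 for which they did. The moderated F test over the 4 genotypes called 7 of the 10 members, where 33.3% of tested genes were called, and the 3 it did not call were ABI1, HAB1 and HAB2 (limma adjusted p = 0.245, 0.0701 and 0.43).

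NCED3 is the member that makes the hormone. Its signal was 108, 88.9 and 72.5% of P75 in arf2, 32.5, 63.3 and 43.2% in gnc gnl and 49.9, 42.7 and 56.3% in libraries labelled arf2 gnc gnl, against 47.8, 59.3 and 61.8% in WT. The arf2 libraries were above all others, and the other 3 groups overlapped. The log2 change of arf2 against WT was 0.67 ± 0.226 (95% interval 0.17 to 1.16, limma adjusted p = 0.125). NCED3 was lower in libraries labelled arf2 gnc gnl than in arf2, with a log2 change of -0.85 ± 0.226 (limma adjusted p = 0.0427).

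The contrast between the 2 mutants held the most calls. In arf2 against gnc gnl, 8 of the 10 genes were called higher, where 17.1% of tested genes were, and for 7 of them the arrays did not overlap, against 21.3% of tested genes. The changes were 7.82-fold for AHG1, 5.24-fold for HAI3, 3.73-fold for HAI2, 2.17-fold for HAI1, 1.99-fold for NCED3, 1.81-fold for ABI2, 1.73-fold for AHG3 and 1.45-fold for HAB1, with limma adjusted p between 0.000125 and 0.0168. AHG1 was well above background on 1 of the 3 gnc gnl arrays, so its fold rests on signal near background there. ABI1 and HAB2 were not called, with log2 changes of 0.23 and 0.20. The 2 groups had no slide in common, and with slide as a block none of the 10 was called and 417 genes in all were, in place of 6933. AHG1 then had a log2 change of 2.05 (limma adjusted p = 0.0871), and that of HAI3 1.70 (adjusted p = 0.167). These estimates link the 2 mutants only through the libraries labelled arf2 gnc gnl, of which replicate 3 alone shared the gnc gnl slide.

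**Figure D2:**
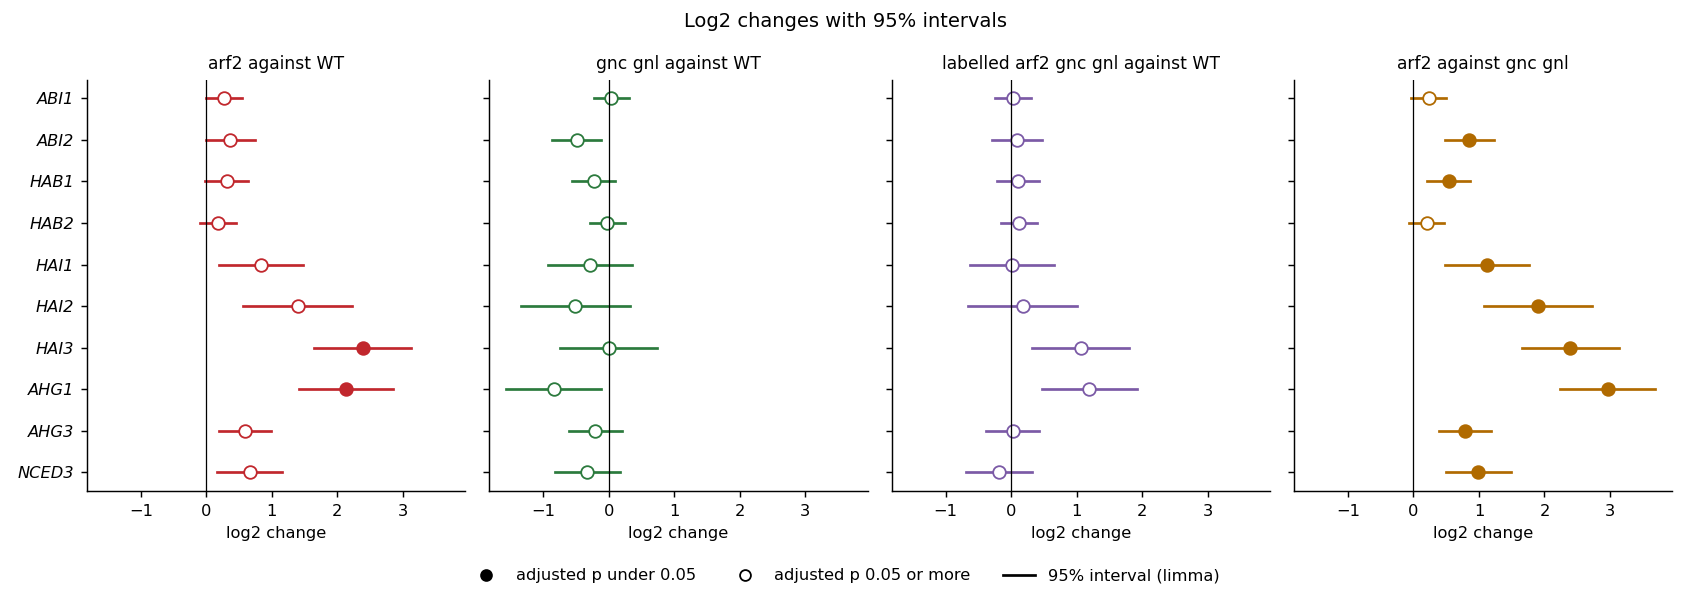
Log2 change of the 10 genes (points) with its 95% interval from limma (lines) in 4 comparisons, filled where the adjusted p was under 0.05. In arf2 against WT the filled points are HAI3 and AHG1, the panels of gnc gnl and of the libraries labelled arf2 gnc gnl against WT hold none, and arf2 against gnc gnl has 8.

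In gnc gnl against WT, 2 of the 10 genes, ABI2 and AHG1, had an unadjusted limma p under 0.05, and the arrays of the 2 groups overlapped for all 10, while those of 21.8% of tested genes lay wholly above WT and those of 20.7% wholly below. The median log2 change of the set was -0.258, against 0.004 for all tested genes. For libraries labelled arf2 gnc gnl against WT none was called by limma, where 2.27% of tested genes were, and HAI3 and AHG1 had an unadjusted p under 0.05. Those 2 genes were also the ones whose arrays lay wholly above WT, against 14.6% of tested genes. The other 8 had log2 changes between -0.18 for NCED3 and 0.18 for HAI2. Neither of these groups had an array on the WT slide, so no comparison within a slide was possible there. With slide as a block 5 of the 10 log2 changes of gnc gnl against WT lay above 0 and their median was 0.018, with none called. Those above 0 were HAB2 (0.04), HAI1 (0.22), HAI2 (0.26), AHG1 (0.36) and HAI3 (0.81). These estimates reach WT only through arf2 replicate 1, and gnc gnl only through replicate 3 of the libraries labelled arf2 gnc gnl.

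Between the libraries labelled arf2 gnc gnl and arf2, none of the 10 log2 changes was above 0, where 51.6% of tested genes were, and HAI3 and NCED3 fell past the threshold, 2 of 10 where 4.5% of tested genes were called lower. The arrays did not overlap for 8 of the 10, against 16.5% of tested genes, and the exceptions were AHG1 and HAB2, while for HAB1 the nearest libraries both rounded to 296% of P75. Uncalled members with large differences were HAI2 (log2 change -1.22, limma adjusted p = 0.0682), AHG1 (-0.93, adjusted p = 0.096) and HAI1 (-0.82, adjusted p = 0.0959). These calls were not stable. With slide as a block none was called, with a log2 change of -1.06 for HAI3 and -0.80 for NCED3, estimates that rest on the 4 arrays of these groups that share a slide. None was called without WT replicate 1 or 3, without arf2 replicate 1 or 2, or without any 1 of the libraries labelled arf2 gnc gnl, 1 without WT replicate 2 or gnc gnl replicate 3, 4 without arf2 replicate 3 and 5 without gnc gnl replicate 2 (5.53% of tested genes were called lower in that last fit). For libraries labelled arf2 gnc gnl against gnc gnl, AHG1 was also the 1 gene of the 10 whose arrays did not overlap (14.8% of tested genes), and with slide as a block its log2 change was 1.52 with a limma adjusted p of 0.128, an estimate that rests on the 1 library labelled arf2 gnc gnl on the slide of the gnc gnl arrays. The comparisons share their WT, arf2 or gnc gnl arrays, so their values are not independent of each other.

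With the 4 genotypes pooled, the 10 genes varied together from library to library, and no correlation was computed within a single genotype. The median deviation of the set was largest in gnc gnl, at -0.37, 0.49 and -0.18 on the log2 scale in replicates 1, 2 and 3. It was 0.08, -0.14 and 0.02 in libraries labelled arf2 gnc gnl. After removal of the genotype means, the correlation between members over the 12 arrays was 0.44 to 0.99 in the 45 pairs, with a median of 0.81, as a description of genes measured on the same arrays. Replicate 2 of gnc gnl was the highest of its genotype for all 10 members, 1.25- to 2.62-fold above the next library, whereas it was highest for 31.7% of all tested genes. Replicate 3 of WT was also the highest of its genotype for all 10, by 1.02- to 1.23-fold, and for 26.7% of all tested genes. In arf2, replicate 1 was highest for 7 members, against 40.5% of tested genes. Replicate 3 of arf2 was lowest for 8 members and highest for 2, ABI2 and HAB1, against 34.5% of tested genes highest there. The members did not share 1 order in libraries labelled arf2 gnc gnl. There replicate 1 was highest for 7 members (33.9% of tested genes), and replicate 3 was highest for 3 (40.8%) and lowest for 4. The profile plot shows each member by library.

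**Figure D3:**
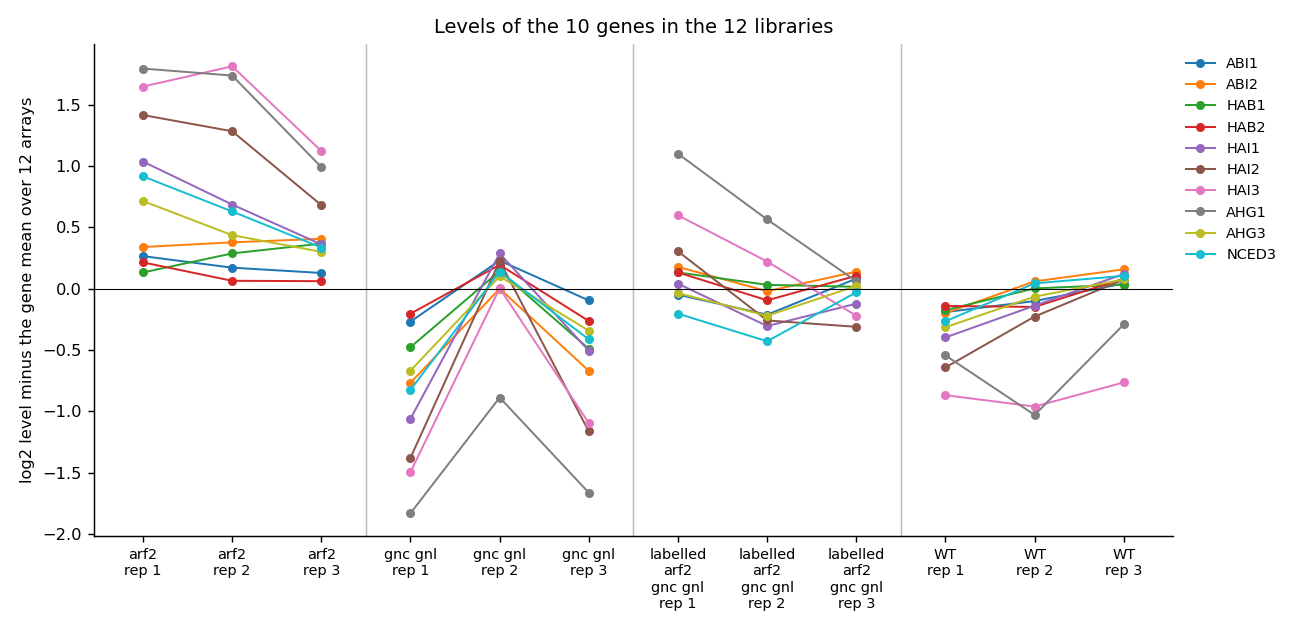
Log2 level of each of the 10 genes minus its mean over the 12 arrays (vertical axis), by library (horizontal axis), where lines join the libraries of a genotype as a guide only, since replicates have no order. Replicate 2 of gnc gnl lies above its 2 partners for every gene, and HAI3 and AHG1 span the widest range.

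The calls depended on gnc gnl replicate 2. It was the highest of its genotype for all 10 members, so leaving it out must lower every gnc gnl mean of the set. The counts without it therefore describe this dependence and do not test the members anew. Without it, 4 members were called lower in gnc gnl against WT, namely ABI2 (log2 change -0.72, limma adjusted p = 0.00282), HAB1 (-0.44, 0.0123), HAI2 (-1.01, 0.0299) and AHG1 (-1.12, 0.0405), where 8.23% of tested genes were called lower in that fit. HAI2 and AHG1 are 2 of the genes whose change was above 0 with slide as a block. In arf2 against WT, where it enters only through the pooled spread, 7 were called higher without it, where 3% of tested genes were: HAI3 and AHG1 as before, and ABI2, HAI1, HAI2, AHG3 and NCED3 with the same log2 changes and limma adjusted p between 0.00792 and 0.0482. HAI3 was then also called higher in libraries labelled arf2 gnc gnl against WT (adjusted p = 0.0337), where 1.66% of tested genes were called higher. Against gnc gnl, 5 members were then called higher in libraries labelled arf2 gnc gnl (4.66% of tested genes) and all 10 in arf2 (13.9%). Of the 13 seed markers, ABI3, EM1 and EM6 were also highest in replicate 2 of the gnc gnl libraries, and the other 10 were highest in replicate 1. Their summed signal was 3220, 994 and 337% of P75 in replicates 1, 2 and 3, and their part in these differences was not tested.

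Other genes of the ABA pathway were taken as lists with known roles. Of 9 tested genes that ABA induces, 4 rose and none fell in arf2 against WT, where 2.48% of tested genes were called higher. Their median log2 change was 0.639, beside -0.004 for all tested genes. TSPO, a stress-induced membrane protein, was 740, 583 and 417% of P75 in arf2 and 95.5, 128 and 170% in WT, a 4.42-fold rise (limma adjusted p = 0.00989). RD29B, a desiccation-response gene and a classical ABA marker, rose 3.87-fold (adjusted p = 0.0483), RAB18, a dehydrin, 2.43-fold (0.0117), and RD29A 2.01-fold (0.0483). ABF factors, the bZIP proteins through which ABA switches genes on, had 2 of 4 called higher, ABF2 1.42-fold (adjusted p = 0.0459) and ABF4 1.32-fold (0.0189, with 2 arf2 values), and a median of 0.441. No tested member of the PYR/PYL receptors (9), the SnRK2 kinases (5), the other ABA synthesis genes (6), the CYP707A genes of ABA breakdown (4) or the clade D PP2Cs (9), a clade outside the ABA receptor complex, was called in arf2 against WT. Their median log2 changes were -0.267, 0.009, 0.048, 0.423 and 0.022. Of the arf2 arrays only replicate 1 shared a slide with WT. With normexp 114 genes in all were called in arf2 against WT in place of 1088. The fits with slide as a block and with normexp were not read for these lists, so the part of slide and background in these list calls was not tested.

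In gnc gnl against WT the pathway lists held calls where the clade A genes held none, beside 12.5% of all tested genes called higher and 12.1% called lower. Without gnc gnl replicate 2, the highest of its genotype for every member, 4 clade A genes were called lower as well. These 2 groups shared no slide, and with slide as a block 29 genes in all were called in place of 4686. That fit was read for the members only, so the list calls that follow cannot be told apart from slide differences. Of the 9 receptors tested, 3 rose and none fell: PYL6 7.73-fold (limma adjusted p = 0.0063, well above background on 1 of 3 WT arrays), PYL5 2.8-fold (0.00244) and PYL4 1.5-fold (0.0439). PYL5 signal was 147, 103 and 171% of P75 in gnc gnl and 53.4, 50.3 and 44.3% in WT. Of the ABF factors 3 of 4 fell, ABF1 to 0.69, ABF2 to 0.762 and ABF4 to 0.849 of WT (adjusted p = 0.01, 0.0465 and 0.0366). Among the kinases SnRK2.7 rose 1.67-fold (0.0104) and SnRK2.2 1.25-fold (0.0343), with none lower. CYP707A2, an ABA 8′-hydroxylase, fell to 0.576 of WT (0.00223) and was the 1 call among the 4 breakdown genes. In ABA synthesis ABA2 rose 1.22-fold (0.0225) and ABA1 fell to 0.762 (0.0317), and none of the 9 ABA-induced genes was called. The clade D PP2Cs had 4 higher and 1 lower of 9, led by AT5G02760 at 2.1-fold (0.00303). For libraries labelled arf2 gnc gnl against WT the 1 called gene of these lists was CYP707A2, which fell to 0.656 of WT (limma adjusted p = 0.0379), where 0.941% of tested genes were called lower.

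**Figure D4:**
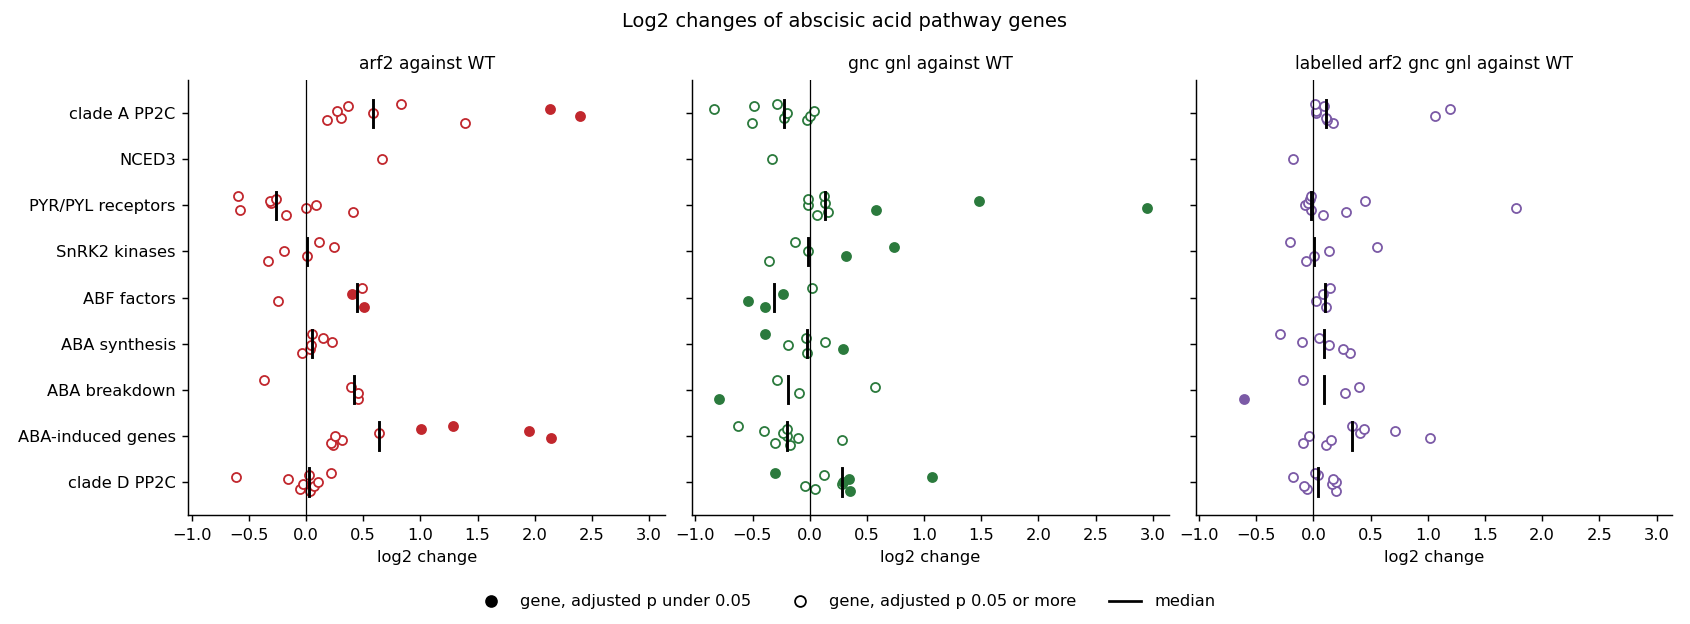
Log2 change against WT (horizontal axis) of each tested gene of the ABA pathway lists (circles, filled where the limma adjusted p was under 0.05) and the median of each list (vertical ticks), for arf2, gnc gnl and the libraries labelled arf2 gnc gnl. Filled circles of arf2 lie among the clade A PP2Cs, ABF factors and ABA-induced genes and all above 0, and those of gnc gnl lie on both sides of 0 and include no clade A gene.

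The genes most like the members in profile were sought for the 3 members with the smallest F test p, by Pearson correlation over the 12 arrays among 18372 genes. For AHG1 they were AT4G35690 (r = 0.99), the defensin-like gene PDF2.1 (AT2G02120, 0.987) and AT1G17010 (0.983). For HAI3 they were AT5G07330 (0.986), AT5G42290 (0.984) and DELTA-VPE (AT3G20210, 0.983), a vacuolar processing enzyme of the seed coat. For HAI2 they were AT4G33905 (0.98), LTI65 (AT5G52300, 0.973), which is RD29B of the ABA-induced list, and HAI1 (0.97). These correlations describe arrays that fall into 4 genotypes and carry no test.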

How the data were processed

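Total RNA of 12 samples was hybridised as Cy3-labelled cRNA, and samples were grouped by genotype label. The authors deposited spot intensity values on a linear scale. According to the headers of the files, Agilent Feature Extraction (10.7.3.1 in the submitters' processing notes) had subtracted background and removed spatial trends. The deposited value table held the same intensities, with 0 cells that differed.

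Control and outlier spots were left out, and log2 of the deposited intensity minus the array's 75th percentile was analysed. Probes had to be well above background throughout at least 1 genotype and to have 2 values in each, and the brightest such probe stood for its gene. No coordinates are given, because the array design predates the annotation that supplied names (TAIR10.1). The 4 genotypes were fitted together with limma 3.58.1 (lmFit and eBayes, 8 residual degrees of freedom) in R 4.3.3. Adjusted p are Benjamini-Hochberg values over the 19020 tested genes of a comparison, and "called" means under 0.05. A ± value is a standard error unless given as SD. P-values measure the spread between these samples, and the number of arrays limits the precision. A fold written "at least" sets the brighter mean against, per dim array, the higher of the lowest signal well above background and the gene's own signal. Input used data.table (version 1.17.8) and figures matplotlib 3.10.9.

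The members and lists were chosen with earlier results of these data known. The text names all members, up to 4 called genes of each list with the smallest p in each comparison with WT, and for 3 members the 3 genes of highest correlation. Among list members, 3 synthesis genes and 5 receptors were not tested. The normexp alternative used the median spot signal, since the mean was not among the columns used here. A planned promoter motif search was not run for want of sequences. The fit was tested on simulated data. The other alternatives were quantile and median scaling, filters, outlier spots, probe choice, slide and replicate blocks, fewer groups, an intensity trend and each array left out.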

Additional observations from a re-analysis of the deposited data

How the results depend on the processing

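The alternatives run covered normalization, background, filters, outliers, probes, slide, replicate number, samples, spread and each array left out. No log2 change of a member that was called in the main fit changed sign. None called in an alternative had the opposite sign in the main fit. Between alternatives signs did differ: in gnc gnl against WT, HAI2 and AHG1 were called lower without gnc gnl replicate 2. Both lay above 0 with slide as a block. Leaving out 1 array gave 2 to 7 members called in arf2 against WT, 0 to 4 in gnc gnl against WT, 0 to 1 in libraries labelled arf2 gnc gnl against WT, 0 to 5 against arf2 and 1 to 5 against gnc gnl, 7 to 10 in arf2 against gnc gnl, and 3 to 8 in the F test. The highest count of each range came without gnc gnl replicate 2, and the F test called 3 without arf2 replicate 1 or 2 and 4 without gnc gnl replicate 3. With normexp 0 members were called in arf2 against WT and for the libraries labelled arf2 gnc gnl against arf2 and against gnc gnl, and 2 by the F test (HAI3 and AHG1). The stricter filter on dim probes left 1 in arf2 against WT, since AHG1 is not tested there. An intensity trend called 1 (ABI2) in gnc gnl against WT and 3 in libraries labelled arf2 gnc gnl against gnc gnl. A fit of only the 2 groups compared called 1 (HAI3) in libraries labelled arf2 gnc gnl against WT and 5 against arf2. Slide as a fixed block left 0 for those libraries against arf2 and against gnc gnl, 0 in arf2 against gnc gnl and 1 by the F test (AHG1), and fits within slides 2 and 3 left 0 in the first 2 of these, where the lone library labelled arf2 gnc gnl on slide 3 is assumed to vary like the others. Over all tested genes, the calls in arf2 against WT ranged from 114 to 1257 over these settings and from 450 to 1472 with an array left out, beside 1088, those in gnc gnl against WT from 29 to 6028 and from 2376 to 4860, beside 4686, and those in libraries labelled arf2 gnc gnl against WT from 6 to 694 and from 125 to 537, beside 432. Against arf2 the libraries labelled arf2 gnc gnl had 17 to 5009 and 125 to 2803 calls, beside 1667, against gnc gnl 1 to 2606 and 881 to 2394, beside 2202, and arf2 against gnc gnl 417 to 9668 and 4753 to 7042, beside 6933. Libraries with the same replicate number had correlated deviations of -0.37 to 0.37 in 18 pairs, 7 of them above 0.1. Those with different numbers had -0.4 to 0.48 in 36 pairs, 8 of them above 0.1. A library's best match had its own number in 15 of 36 cases. These values do not settle whether replicate numbers pair the samples. With replicate number as a block, 2 members were called in arf2 against WT, 0 in both other comparisons with WT, 1 (HAI3) for those libraries against arf2, 1 against gnc gnl, 8 in arf2 against gnc gnl and 6 by the F test. The causes of these shifts were not tested. Signal near background limits AHG1, which was well above it on 1 of 3 gnc gnl arrays.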
